A study of Mus musculus with 7 samples.

Results

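Nupr1 and 9 further genes of the integrated stress response were followed in the RNA of LSK cells, a lineage-negative, Sca1- and cKit-positive fraction of the bone marrow (BM) that holds the stem and multipotent progenitor cells. The 10 genes (Nupr1, Atf4, Atf3, Atf5, Ddit3, Ddit4, Trib3, Chac1, Asns and Sesn2) were taken by symbol from a table of 48440 genes, and each had exactly 1 row. The set was chosen by the difference in normalized counts of Nupr1 between the groups and filled with known genes of the pathway while results of these libraries were in view, so member values, their intervals and the counts of calls are given as a description, and no p-value is given for a member. Donor BM was either wild-type or carried a constitutive, endonuclease-made PROSER1 KO, and it had been transplanted into lethally irradiated C57BL/6 recipients (9.5 Gy, split over a pair of doses), with no further treatment. RNA of LSK cells sorted at day 77 after transplantation was sequenced in 4 wild-type and 3 PROSER1 KO libraries. Both groups therefore share irradiation, transplantation and the sort, the KO was present in every cell of the donor rather than in 1 lineage, and donor ages and the number of mice behind a library are not given in the sources used here. Where replicates do not stem from separate animals, a p-value measures only the spread between these samples.

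The integrated stress response is a shared reply of cells to unfolded proteins, amino acid shortage, viral RNA and heme or mitochondrial stress. Kinases that sense these states phosphorylate the initiation factor eIF2, which lowers protein synthesis in general but favours translation of the mRNA for ATF4. ATF4 then acts with other bZIP factors such as CHOP on genes for amino acid supply, redox control and cell death, and in hematopoietic stem cells (HSCs) the pathway is known for its link between protein stress and survival. Since ATF4 is controlled largely at translation, RNA levels report on its targets more directly than on ATF4 itself.

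The targeted gene did not mark the KO libraries by a lower level. Proser1 had normalized counts of 2019 to 2153 in the wild-type libraries and 2338 to 2464 in the PROSER1 KO libraries, so every direction below rests on the labels alone. Libraries held 33143619 to 45140743 read pairs on genes, and 1 read pair was worth 0.846 to 1.159 normalized counts. The genes of the sort (Kit, Ly6a) and of stem cells were measured in all libraries, and none of these 10 marker genes passed the test between groups. Groups did not overlap for 1 of them, Mecom, against 10% of all tested genes. Mecom was at 2683 to 3030 in the wild-type and 2160 to 2610 in the PROSER1 KO libraries (log2 difference -0.25). Plasma cell markers, which LSK cells should lack, were also abundant, with 4.02% to 9.14% of all normalized counts in the wild-type and 4.45% to 6.75% in the PROSER1 KO libraries.

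Among the members, Nupr1 stood apart. NUPR1 is a small chromatin-associated protein that is induced by many kinds of cell stress. Its gene (ENSMUSG00000030717) lies on the reverse strand of chromosome 7 (GRCm38, 126623249 to 126630861), and no other gene of the annotation overlaps it. Normalized counts of Nupr1 were 157, 214, 98.8 and 163 in wild-type replicates 1 to 4. They were 288, 403 and 332 in PROSER1 KO replicates 1 to 3. All PROSER1 KO libraries were thus above all wild-type libraries, and the lowest value came from wild-type replicate 3 and the highest from PROSER1 KO replicate 2. The wild-type mean was 158 ± 47.0 (SD, n = 4), and the PROSER1 KO mean was 341 ± 57.9 (SD, n = 3). On the scale of log2(normalized count + 1) the difference was 1.14 (standard error 0.24, 95% interval 0.60 to 1.69), which is a 2.21-fold higher level. Over the alternatives of processing it ranged from 0.93, without wild-type replicate 3, to 1.30, without wild-type replicate 2.

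None of the members was called by limma with a fold change above 1.5 and an adjusted p-value under 0.05, a rule that called 42 of 16251 tested genes (0.258%), of which 20 were higher in the PROSER1 KO libraries (0.123%). Nupr1 was called by DESeq2 on recovered read pairs, which called 165 of 18903 genes (0.873%), and by limma with robust variance estimates, which called 80 of 16251 (0.492%). It was not called by edgeR. Groups that do not overlap were found for 1625 of the 16251 tested genes (10%), with the PROSER1 KO libraries above in 5.17% and below in 4.83%. Nupr1 was the 1 of 9 tested members with this pattern, and 2.01% of all tested genes had a larger difference in either direction. Nothing is read from these counts, since the same contrast led to the choice of Nupr1.

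**Figure D1:**
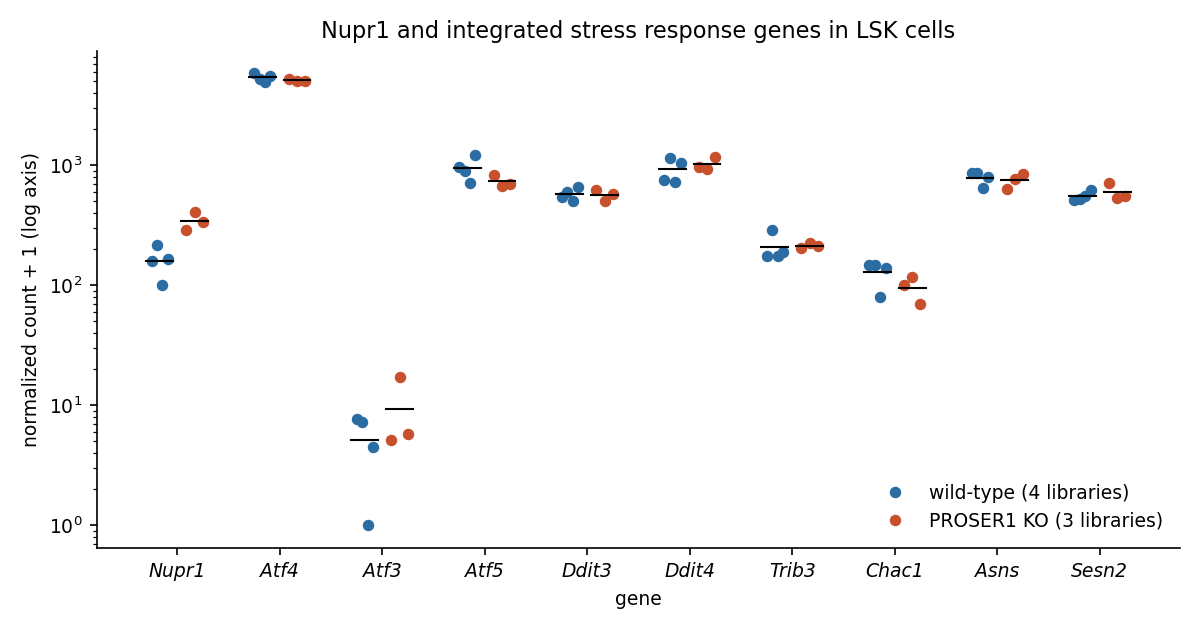
Normalized count + 1 (log axis) of the 10 genes in each library, with 4 wild-type libraries in blue, 3 PROSER1 KO libraries in red and black bars at the group means. For Nupr1 the red points (288 to 403) lie above the blue points (98.8 to 214), while the groups overlap for each of the other 9 genes.

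Markers of other cell types were set beside Nupr1, and the lists with a positive median difference are given in detail. Medians of the B-lineage, T and innate lymphoid, granulocyte and monocyte, erythroid, and mast cell and basophil lists were -0.08 to -0.0004. None of their genes was called. These lists held 8, 9, 10, 9 and 6 tested genes, in this order. In them the PROSER1 KO libraries lay above all wild-type libraries for Csf1r and Cpa3, and below for Cd4, Ctsg and Mcpt8. The shares over all tested genes were 5.17% above and 4.83% below, and nothing is read from these markers. In bulk RNA, fewer cells of a type and less RNA per cell cannot be told apart. The 6 megakaryocyte markers (Pf4, Itga2b, Vwf, Gp9, Gp1bb and Ppbp) all had positive differences, and their summed normalized count was 7062 to 8906 in the wild-type libraries and 9238 to 12026 in the PROSER1 KO libraries, so that the summed levels did not overlap. This sum was carried by Itga2b and Vwf, each of the 6 overlapped between the groups on its own, and their mean deviation (log2) overlapped as well, at -0.31 to 0.09 against -0.26 to 0.61. None of them was called (lowest limma adjusted p = 0.404), and none was at 0 in any library. Of the 9 macrophage markers 7 were higher and 2 lower, with a median log2 difference of 0.35. None was called, and their sums overlapped (632 to 941 against 759 to 1087). Their mean deviation (log2) was -0.28 to -0.08 in the wild-type libraries and -0.13, 0.37 and 0.44 in PROSER1 KO replicates 1 to 3. Of the 7 tested stromal and endothelial markers 4 were higher and 3 lower, with a median log2 difference of 0.51, and none was called. The sums over all 9 listed genes overlapped too (5179 to 6064 against 5636 to 6098), but they were carried by Pecam1, whose own difference was -0.04. Mean deviations (log2) of the tested genes were -1.28 to 0.57 in the wild-type and 0.007 to 0.77 in the PROSER1 KO libraries. Among the PROSER1 KO libraries, replicate 1 had the lowest Nupr1, the highest summed megakaryocyte level and the lowest mean deviation of the macrophage markers. The part of these cell types in the Nupr1 difference was not tested.

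The genes whose profile over the 7 libraries was closest to that of Nupr1 were not members. Likeness was measured as the root mean square difference of log2(normalized count + 1), each gene being centred on its mean, over the other 16250 tested genes. The closest was Dsg2, a desmosomal cadherin, at 0.135. Dsg2 had normalized counts of 47.1, 53.2, 27.6 and 45.2 in the wild-type and 72.0, 124 and 78.7 in the PROSER1 KO libraries. It was followed by Tlr5 (0.210), the flagellin receptor, Gm15429 (0.214), a processed pseudogene, Gda (0.229), the guanine deaminase, and Cyp26b1 (0.249), an enzyme that degrades retinoic acid. As their choice by this likeness largely fixes, each of the 5 was lowest in wild-type replicate 3, and the groups did not overlap. Gda was the most abundant, with 363 to 559 in the wild-type and 823 to 1032 in the PROSER1 KO libraries. By rank instead of size, 6 other genes shared the order of Nupr1 over the libraries exactly (Spearman rho of 1), and the 5 named here were not among them. As a processed pseudogene, Gm15429 may share reads with its parent gene, so its counts are uncertain.

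The nearest member to Nupr1 was Ddit4, at rank 693 (0.541), followed by Trib3 at rank 1141 (0.572). Asns, Sesn2, Ddit3 and Atf4 held ranks 4505 to 8906. Chac1 (rank 13526) and Atf5 (rank 13557) were among the least alike, each with a root mean square difference of about 0.81.

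**Figure D2:**
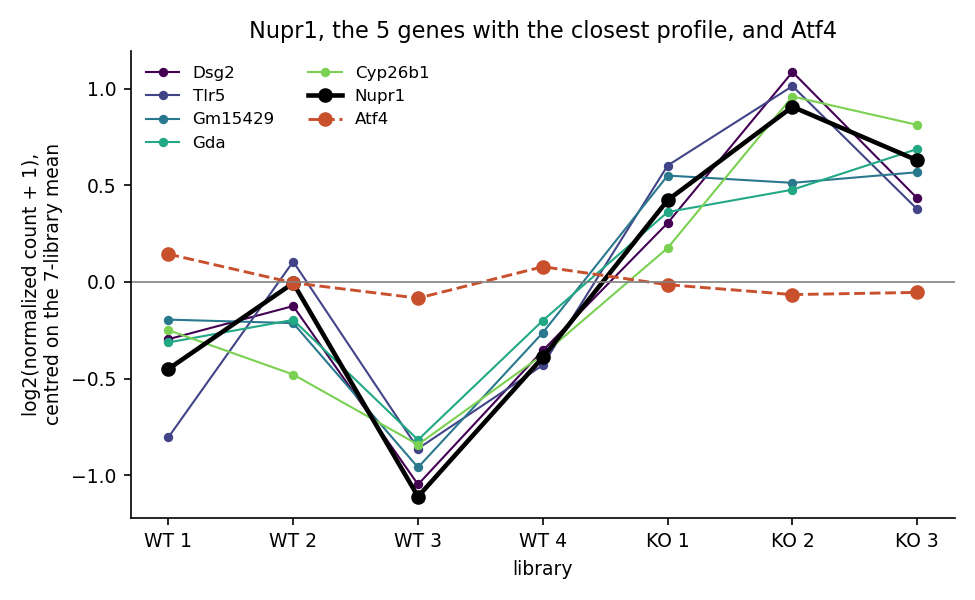
Log2(normalized count + 1) of Nupr1 (black), the 5 genes closest to it and Atf4 (red, dashed) in the 7 libraries, each centred on its own mean, with lines that only join points of the same gene. Nupr1 and the 5 genes, which were chosen for the likeness of these profiles, are lowest in wild-type replicate 3 and positive in all PROSER1 KO libraries, and Atf4 stays close to 0.

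The transcription factors of the response did not share the pattern of Nupr1. Atf4, the central bZIP factor, was the most abundant member, with normalized counts of 5818, 5248, 4968 and 5559.9 in the wild-type libraries. In the PROSER1 KO libraries Atf4 was at 5213, 5031 and 5071. The groups overlapped, and the log2 difference was -0.08 (standard error 0.06, 95% interval -0.21 to 0.05). For Ddit3, which encodes the pro-apoptotic factor CHOP, the values were 539, 591, 503 and 652 against 615, 500.1 and 579. The Ddit3 difference was -0.01 (standard error 0.11), and its sign changed in 4 of 18 alternatives. Of these, the fit with the replicate number as a block and the fit without wild-type replicate 4 gave the same value, 0.05. Atf5, a bZIP factor linked to mitochondrial stress, had 971, 894, 711 and 1222 in the wild-type and 830.4, 672 and 690.3 in the PROSER1 KO libraries. Atf5 values were thus spread widely in the wild-type, and the PROSER1 KO libraries lay in and below their lower range, with a log2 difference of -0.36 (standard error 0.16, 95% interval -0.72 to 0.01).

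Atf3, a factor that is quickly induced by stress, was close to the limit of detection. Its normalized counts were 6.73, 6.31, 0 and 3.48 in the wild-type and 4.17, 16.1 and 4.80 in the PROSER1 KO libraries, and its mean was under the minimum of 10 required for the test. A count of 0 allows up to 3 read pairs, for counting error only. No difference in Atf3 was detectable at this depth.

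Parts of Atf5 and Ddit3 lie opposite other genes. Exons of Atf5 share 82 bases with Nup62 and with Il4i1 on the other strand, and exons of Ddit3 share 68 bases with Mars and 13 with Gm4189. Since the strand setting of the counting is not given in the sources used here, read pairs in these stretches may have been left out or counted for either gene. A second annotated Ddit3 entry shares 105 bases with the first.

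The inhibitors of growth signalling and the feedback members were likewise mixed. Ddit4 (REDD1), an inhibitor of mTORC1, had normalized counts of 757, 1146, 726 and 1047 in the wild-type and 966, 925 and 1172 in the PROSER1 KO libraries. The difference of 0.17 (standard error 0.17, 95% interval -0.20 to 0.55) was smaller than the spread between the wild-type libraries. Sesn2, a leucine sensor that also restrains mTORC1, was at 509, 522, 549 and 624 against 705, 531 and 549. Only PROSER1 KO replicate 1 exceeded the wild-type values, and without it the Sesn2 difference went from 0.10 to -0.02. Trib3, a pseudokinase that restrains ATF4 and CHOP, was at 174, 287, 175 and 189 in the wild-type and 202, 223 and 211 in the PROSER1 KO libraries. Its wild-type replicate 2 was the highest of all libraries, and the PROSER1 KO libraries lay within the wild-type range.

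The metabolic target genes overlapped between the groups. Chac1, which breaks down glutathione, had normalized counts of 146, 147, 79.3 and 138 in the wild-type and 99.1, 116 and 68.2 in the PROSER1 KO libraries. Wild-type replicate 3 lay among the PROSER1 KO values, and the log2 difference was -0.42 (standard error 0.27, 95% interval -1.04 to 0.19). Asns, the asparagine synthetase and a standard readout of ATF4, was at 859, 860.0, 643 and 789 against 632, 770.0 and 847. The Asns difference was -0.07 (standard error 0.13, 95% interval -0.36 to 0.22), with the lowest PROSER1 KO library next to the lowest wild-type library.

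Across the 8 tested members other than Nupr1, 3 were higher and 5 lower, with a median log2 difference of -0.04 beside 0.0015 over all tested genes, and the groups overlapped in all 8. Their 95% intervals lay between 0.488-fold and 1.46-fold, so larger changes in either direction were outside the interval of each of these genes. This does not show that the levels were equal. Sign changes over the alternatives were seen for Ddit3, Asns and Sesn2, and not for Nupr1, Atf4, Atf5, Ddit4, Trib3 or Chac1.

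**Figure D3:**
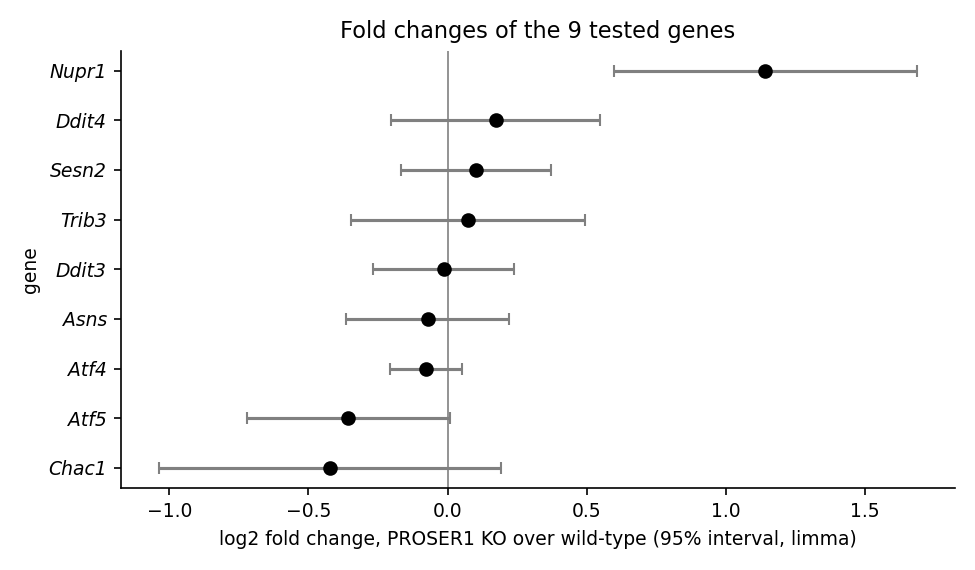
Log2 fold change (PROSER1 KO over wild-type) of the 9 tested genes with its 95% interval from limma. The interval of Nupr1 (0.60 to 1.69) lies above the intervals of the other 8 genes, which reach at most 0.55 and all include 0.

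Members also varied within the wild-type group. Wild-type replicate 3 was the lowest wild-type library for 8 of the 10 members (Nupr1, Atf4, Atf3, Atf5, Ddit3, Ddit4, Chac1 and Asns), 7 of them among the 9 tested, whereas it was the lowest for 25.8% of all tested genes. Trib3 and Sesn2 were lowest in wild-type replicate 1. The mean deviation of the 9 tested members from their 7-library means was -0.33 on the log2 scale in wild-type replicate 3 and 0.15 in wild-type replicate 2, and it lay between 0.01 and 0.05 in the PROSER1 KO libraries. The same library had low amino acid transporter genes (-0.28), immediate early genes (-0.70) and plasma cell markers (-0.52). Its B-lineage markers (-0.53) and granulocyte and monocyte markers (-0.48) were low as well, while LSK and stem cell markers were at 0.01. It also had the fewest read pairs on genes (33143619). The part of these features in the low member values was not tested.

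Levels differed strongly between members. Per kilobase of annotated exon, mean normalized counts were 2236 for Atf4, 549 for Ddit4, 429 for Atf5, 332 for Ddit3, 282 for Asns and 164 for Sesn2. Trib3 (98.2), Nupr1 (94.1) and Chac1 (69.3) followed, and Atf3 was lowest at 2.76. The ranges over libraries did not overlap between Atf4 and Ddit4, between Asns and Sesn2, between Sesn2 and Trib3, or between Chac1 and Atf3. All other neighbours in this order overlapped, so that Nupr1 could not be placed above or below Trib3 and Chac1.

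A sequence that the members could share is the C/EBP-ATF response element, to which ATF4 binds with C/EBP factors. Promoters (250 bases before to 50 after the start site, RefSeq on GRCm38.p6) were found for all 10 members, 11 promoters in all, and searched on both strands for TGATGNAA. The element was present in 5 members, Nupr1, Atf3, Chac1, Asns and Trib3, and in 1304 of 32851 promoters overall (3.97%). The stricter form TGATGCAA was present in Nupr1, Atf3 and Chac1 and in 294 promoters overall (0.895%). The matched stretches are shown for these 5 genes, 5′ to 3′ on the strand of the gene, to let their elements be compared. Capitals mark the element, which reads TTGCATCA or TTACATCA where it lies on the opposite strand. For Nupr1, Atf3, Chac1 and Asns the bases before the start site are given, and for Trib3, where the element starts at base 15 of the transcript, the 30 bases around it.
Nupr1 (chr7:126625471-126625720, reverse strand): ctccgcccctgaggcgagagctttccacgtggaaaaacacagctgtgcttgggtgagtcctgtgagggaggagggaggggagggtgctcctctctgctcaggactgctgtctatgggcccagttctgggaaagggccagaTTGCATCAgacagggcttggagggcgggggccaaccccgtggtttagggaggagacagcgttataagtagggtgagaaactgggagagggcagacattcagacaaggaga
Atf3 (chr1:191183334-191183583, reverse strand): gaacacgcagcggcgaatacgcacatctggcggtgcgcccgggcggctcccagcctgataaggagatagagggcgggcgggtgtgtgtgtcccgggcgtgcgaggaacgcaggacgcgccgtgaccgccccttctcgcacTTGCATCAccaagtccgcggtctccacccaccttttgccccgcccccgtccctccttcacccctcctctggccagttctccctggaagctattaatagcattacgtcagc
Chac1 (chr2:119350992-119351241, forward strand): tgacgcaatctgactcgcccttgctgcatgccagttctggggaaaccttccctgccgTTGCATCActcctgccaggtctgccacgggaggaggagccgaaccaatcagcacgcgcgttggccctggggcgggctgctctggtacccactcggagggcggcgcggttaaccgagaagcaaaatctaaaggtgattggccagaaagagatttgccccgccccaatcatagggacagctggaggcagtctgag
Asns (chr6:7693210-7693459, reverse strand): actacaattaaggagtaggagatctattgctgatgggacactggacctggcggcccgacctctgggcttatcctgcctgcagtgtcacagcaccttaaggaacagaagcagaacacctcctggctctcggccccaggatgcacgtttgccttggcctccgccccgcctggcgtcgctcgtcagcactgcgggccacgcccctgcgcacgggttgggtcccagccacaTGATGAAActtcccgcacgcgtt
Trib3 (chr2:152344028-152344057, reverse strand): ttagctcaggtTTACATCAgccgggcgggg
In Nupr1 and in Atf3 the element began at base -110 from the start site, in Chac1 at -193 and in Asns at -23. The Nupr1 window lies inside the annotated gene span, since longer Nupr1 transcripts start upstream of it. Atf4, Atf5, Ddit3, Ddit4 and Sesn2 had no match in these windows, which says only that these letters are not there. In the further pathway lists described next, the element was held by 5 of 8 promoters of aminoacyl-tRNA synthetases (promoters were found for 8 of the 12 genes), 2 of 11 of amino acid and one-carbon synthesis, 2 of 10 of amino acid transporters and 3 of 18 of other ATF4 and CHOP targets. It was held by 1 of 13 of the eIF2 machinery, 1 of 18 of the ER list, 0 of 9 of the mitochondrial list and 0 of 11 of the paralogs.

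The rest of the pathway was read from 8 further lists of genes written from general knowledge. Of their 101 tested genes 34 were higher and 67 lower in the PROSER1 KO libraries, with a median log2 difference of -0.04. None was called by limma, edgeR or DESeq2, and 12 had an unadjusted limma p-value under 0.05, as had 1582 of all 16251 tested genes (9.73%). Groups did not overlap for 9 of the 101 (8.91%), 3 with the PROSER1 KO libraries above and 6 below, against 10% of all tested genes.

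The lowest limma adjusted p-value of these genes, 0.132, belonged to Eif2ak2, which encodes PKR, the eIF2 kinase that senses double-stranded RNA. Its normalized counts were 3559.9, 3730.2, 3869 and 3829 in the wild-type and 4253, 4368 and 4509.5 in the PROSER1 KO libraries. The groups did not overlap, but the log2 difference was small at 0.22 (standard error 0.048). The other eIF2 kinases, named for their role, did not share this direction. Eif2ak1 (HRI, the heme-regulated kinase) was at 2682 to 2859.9 against 2522 to 2538, with the PROSER1 KO libraries below and a difference of -0.15 (limma adjusted p = 0.326). Eif2ak3 (PERK, the kinase of the endoplasmic reticulum) and Eif2ak4 (GCN2, the amino acid sensor) overlapped between groups, with differences of -0.14 and -0.02. Ppp1r15a (GADD34), the inducible subunit of the eIF2 phosphatase and itself a target of ATF4, ranged from 947 to 2724 in the wild-type and from 1294 to 1774 in the PROSER1 KO libraries. Its highest value was in wild-type replicate 1, where the summed immediate early genes were also highest (58172, against 13664 to 26755 in the other libraries), and their part in it was not tested.

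The lists for amino acid supply were balanced. Of 11 tested genes of serine, glycine, proline and one-carbon synthesis 5 were higher and 6 lower, with Pycr1 (proline synthesis) at -0.18 and Gpt2 (an alanine aminotransferase) at -0.17 as the largest differences. Amino acid transporters were split 5 and 5, and the largest differences were in low genes, Slc7a3 at -0.73 (19.5 to 46.4 against 14.6 to 27.8) and Slc1a4 at 0.45 (93.1 to 240.0 against 195 to 237). The 12 cytosolic aminoacyl-tRNA synthetases lay between -0.09 and 0.08, and Sars and Wars, both at -0.09, were the most different.

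Other targets of ATF4 and CHOP were 5 higher and 8 lower of 13 tested, led by Vegfa (-0.32), a vascular growth factor, and Tnfrsf10b (-0.21), a death receptor that also stands in the p53 list. The summed level of this list was 26189 to 27606 in the wild-type and 24761 to 25515 in the PROSER1 KO libraries. The largest parts of this sum came from Ndrg1, Sqstm1 and Vldlr, and each tested gene of the list overlapped between the groups. The mean deviation (log2) of the list overlapped as well, at -0.04 to 0.07 against -0.09 to -0.002. Mitochondrial chaperones and proteases, a readout of mitochondrial protein stress, were 3 higher and 6 lower, with Oma1 at -0.13 and Clpp at -0.06. Paralogs of the members were 5 higher and 6 lower. Among them Sesn3 (2544 to 3231 against 3242 to 3735, difference 0.28, limma adjusted p = 0.327) and Atf2 had PROSER1 KO libraries above all wild-type libraries, and Trib1 had the largest difference (-0.37) with overlapping groups.

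The next list held genes for chaperones and degradation in the endoplasmic reticulum (ER). These respond to the ATF6 and XBP1 arms of the unfolded protein response, and Atf6, Xbp1 and Ern1 of these arms were listed too. All genes of the list had negative differences. These were 21 of 21 genes with a median of -0.23, and 9 had an unadjusted limma p-value under 0.05 (9.73% of all tested genes), but none was called (lowest limma adjusted p = 0.209, for Manf). In 4 genes, Calr, Dnajb11, Manf and Sdf2l1 (19%, against 4.83% of all tested genes), the PROSER1 KO libraries lay below all wild-type libraries. Sdf2l1, an ER chaperone cofactor, had the largest difference, with 2615, 2481, 2117 and 2907 in the wild-type and 1337, 1890.4 and 2110.3 in the PROSER1 KO libraries. The highest PROSER1 KO library thus almost reached the lowest wild-type library, and the log2 difference was -0.52 (standard error 0.153, limma adjusted p = 0.288). Creld2, a secretory-pathway disulfide isomerase, was at 2945 to 5012 against 2662 to 3471 (difference -0.39). Without wild-type replicate 4, 19 of the 21 were lower, and without any 1 of the other libraries 20 or 21.

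Values of plasma cells, which secrete antibody through the ER, are set beside the ER genes. The mean deviation of the 21 genes was highest in wild-type replicate 4 (0.35), where the 10 plasma cell markers summed to 3726800, and it was -0.12 in wild-type replicate 3, where they summed to 1533160. Wild-type replicates 1 and 2 lay between them on both measures, with 0.16 and 0.02 and sums of 2587330 and 2138210. Among the PROSER1 KO libraries it was -0.25, -0.18 and 0.03 in replicates 1, 2 and 3, with plasma cell sums of 2086410, 1699930 and 2642540. Within the wild-type group the order of the libraries was thus the same on both measures. PROSER1 KO replicate 1 had a lower ER level than replicate 2 at a higher plasma cell sum, and it was also below wild-type replicate 2 at a similar sum. These sums were carried by Ighm, Igkc, Jchain and Igha. The mean deviation of the plasma cell markers was also similar, at -0.15 in PROSER1 KO replicate 1 and -0.13 in wild-type replicate 2. Single markers differed between these libraries, with Mzb1 (2956 against 4085) and Derl3 (1425 against 1844) lower in the former and Prdm1 (1175 against 1038) higher. Of the plasma cell markers 9 of 10 had negative differences and Igha a positive one, none was called, the sums overlapped between groups, and no marker was at 0. The part of plasma cell RNA in the lower ER genes was not tested.

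**Figure D4:**
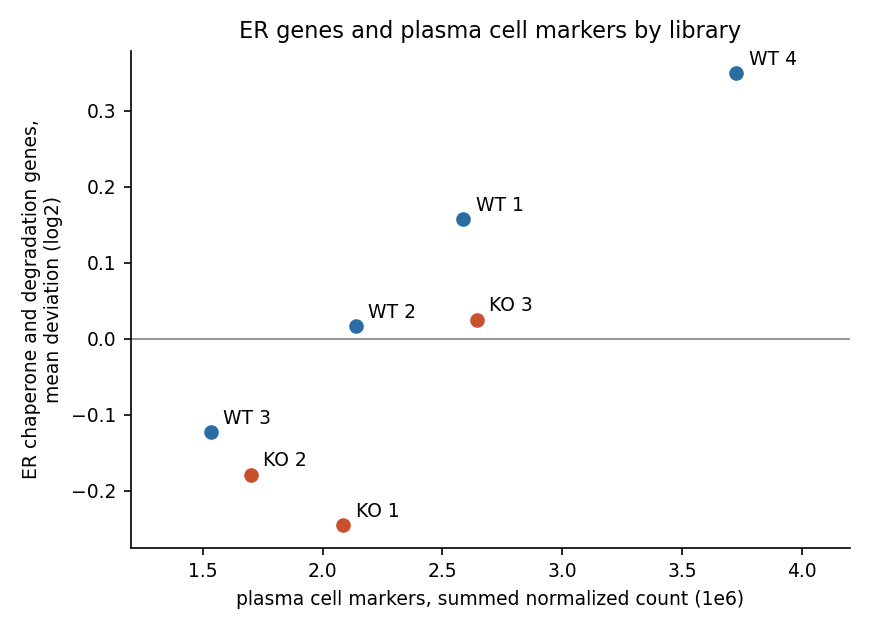
Mean deviation (log2) of the 21 genes of the ER list against the summed normalized count of 10 plasma cell markers (in units of 1e6). There is 1 point per library, with wild-type in blue and PROSER1 KO in red. Wild-type replicate 4 is highest on both axes (0.35 and 3726800), and the lowest ER values are in PROSER1 KO replicates 1 and 2 (-0.25 and -0.18).

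Other stress programs were read in the same way. Of 31 tested genes of the p53, immediate early and glucocorticoid lists 14 were higher and 17 lower. None was called by limma, edgeR or DESeq2, and 2 had an unadjusted limma p-value under 0.05 (9.73% of all tested genes). Groups did not overlap for 1 of the 31 (3.23%), Eda2r, a death domain receptor and p53 target, with 59.6 to 66.1 in the wild-type and 70.1 to 104 in the PROSER1 KO libraries. Pmaip1 (NOXA), which p53 and ATF4 both induce, was at 109 to 259.7 against 82.4 to 125, with a difference of -0.63 (limma adjusted p = 0.535). Immediate early genes were led by Nr4a1 (-0.35) and Jun (0.29), and the glucocorticoid list by Klf9 (0.25) and Sgk1 (-0.15).

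**Figure D5:**
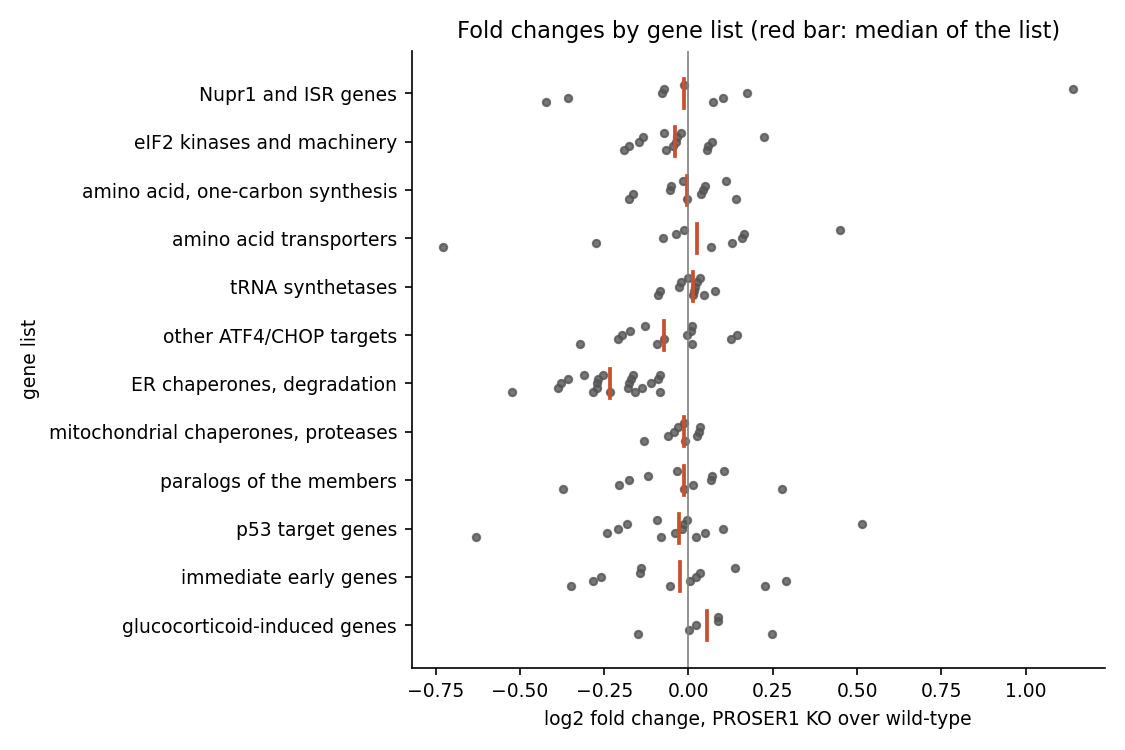
Log2 fold change (PROSER1 KO over wild-type) of each tested gene of the members, the 8 pathway lists and the 3 other stress lists (no cell type markers), with a red bar at the median of the list. Among these lists Nupr1 is the single point above 1, and the ER chaperone and degradation list (median -0.23) is the one list with all genes below 0.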

How the data were processed

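The data are LSK RNA-seq of 4 wild-type and 3 PROSER1 KO samples. Trimmomatic, STAR (mm10) and featureCounts were used by the authors, who deposited a normalized signal, namely read pair counts divided by a DESeq2 size factor for each library. Whole read pairs were recovered (100% of values within 0.01 of a whole number), and there were 0 columns of other samples. The 685 genes without a symbol stayed in the tests.

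Groups follow the labels. limma 3.58.1 in R 4.3.3 (eBayes with trend) was run on log2(normalized count + 1), which understates fold changes of low genes, for the 16251 genes whose mean reached 10. A gene was called at a fold change above 1.5 with a p-value under 0.05 after Benjamini-Hochberg adjustment. edgeR 4.0.16 and DESeq2 1.42.0 on recovered read pairs were alternatives, and all were tested on simulated data. There every gene had the same dispersion (spread beyond counting error), so these data cannot decide between the tools where they differed on Nupr1. Positions come from GENCODE M21 (GRCm38) and promoters from RefSeq (GRCm38.p6).

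The members and lists were chosen with earlier results of these data known. Named genes were the members, the overlapping genes, the 5 nearest to Nupr1 and the 2 largest differences per pathway or stress list. The other eIF2 kinases, Manf, Calr, Dnajb11, Atf2 and marker genes were named after their values were seen. No replicate numbers were used to pair libraries.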

Additional observations from a re-analysis of the deposited data

Results flagged for a closer look

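Over 33 groups of 4 wild-type values that were examined, 2 values lay far from the other libraries of their group by Dixon's ratio, and chance alone flags about 1 group in 20. For Trib3, wild-type replicate 2 (287, against 174 to 189 in the other wild-type libraries) had a ratio of 0.868. For Chac1, wild-type replicate 3 (79.3, against 138 to 147) had a ratio of 0.867. Without wild-type replicate 2 the Trib3 difference rose from 0.07 to 0.24 on the log2 scale, and without wild-type replicate 3 the Chac1 difference went from -0.42 to -0.63.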

How the results depend on the processing

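No further gene of the pathway lists was called under any alternative. The number of genes called over all tested genes was 42, and it was 17 with eBayes without trend, 80 with robust variance estimates and 165 with DESeq2. Leaving out 1 library gave 23 to 42 genes, the lowest without PROSER1 KO replicate 2. The number of members called was 0, and it was 1 (Nupr1) with robust variance estimates and with DESeq2. The cause of these shifts was not tested. Of 162 alternative values of the members' fold changes, all 162 differed from the reported one by less than 1 within-group SD. This count overstates the stability, since settings that change only the gene filter or the variance estimate leave a fold change as it is. The fit with the replicate number as a block also gives the same member fold changes as the fit without wild-type replicate 4. Replicate numbers are shared between the groups, but same-numbered libraries did not deviate together (correlations of 0.0226, 0.0575 and -0.106), and a fit with the replicate number as a block called 35 genes and 0 members. With the stricter element TGATGCAA, 3 instead of 5 members held it. Counts of the ER genes without single libraries were added after seeing the data. At this depth Atf3 was too low for a comparison.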
